A study of Bos taurus with 6 samples.

Results

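The vascular endothelial growth factor (VEGF) system of bovine endometrium was measured through 10 genes, taken by symbol from the 34733 named entries of the deposited tables. They were 5 ligands (VEGFA, VEGFB, VEGFC, VEGFD and PGF), 3 receptor tyrosine kinases (FLT1, KDR and FLT4) and 2 neuropilins (NRP1 and NRP2). RNA came from 3 libraries of side population (SP) cells and 3 libraries of main population (MP) cells of the cow, Bos taurus. All 6 derive from intercaruncular endometrium of slaughterhouse uteri in the luteal phase, freed of luminal epithelium and digested with collagenase to give a stromal cell preparation. SP cells are those that pump out the DNA dye Hoechst and lose this property under verapamil, MP cells are those that keep the dye, and dead cells were gated out with propidium iodide in both. The labels name no genotype, treatment or antibody gate, and do not say whether replicates came from separate cows, so p-values reflect the spread of these libraries alone, part of which may be technical. The file headers of MP alone carry the word micro, of unknown meaning, so any handling it stands for cannot be told apart from the population.

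VEGF ligands are secreted dimers that drive the growth and permeability of vessels. VEGFA binds FLT1 and KDR, VEGFB and placental growth factor (PGF) bind FLT1, and VEGFC and VEGFD bind FLT4 and, once processed, can bind KDR. KDR carries most of the proliferative signal in blood vessel endothelium, FLT1 holds ligand tightly with a weaker kinase, FLT4 is best known from lymphatic vessels, and the neuropilins are co-receptors that VEGF shares with class 3 semaphorins. Endometrial vessels grow and regress with each estrous cycle, and VEGF signalling is a known part of that remodelling.

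Levels are in FPKM, that is, fragments corrected for the length of the transcript and the size of the library, so levels of different genes can be set side by side. From the steps of the lowest values, SP replicates 2 and 3 were 1.60 and 1.83 times as deep as SP replicate 1. MP replicates 1 to 3 were 2.32, 3.19 and 2.00 times as deep as SP replicate 1. On this estimate each SP library was shallower than each MP library, which presumes that the FPKM carry no further scaling between libraries. The libraries also differed in their cells. The median of 16 endothelial markers, such as CDH5 and PECAM1, was 139, 80.2 and 92.4 FPKM in the 3 SP libraries, in replicate order, against 8.08, 18.2 and 57.8 FPKM in the 3 MP libraries. MP replicate 3 thus stood apart from the other MP libraries towards SP, and the fold change of each tested VEGF gene is given with and without it. MP replicate 3 was picked after these values were seen. Leaving it out must raise the fold change of a gene that is highest there among MP. The fold change without MP replicate 1, the lowest MP library in these markers, is given as well. Bulk RNA cannot tell fewer cells of a type from less RNA per cell. The labelled stromal cells were checked against decorin (DCN), a defining fibroblast transcript, which averaged 154 ± 35.8 FPKM in SP, against 3884 ± 2283 FPKM in MP (± SD, 3 libraries each), and DPT was under 1 FPKM in each SP library.

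Receptors and neuropilins were higher in SP, while the ligands split. FLT1, KDR, NRP1 and NRP2 rose, VEGFC rose with less stability, VEGFB and PGF fell, and VEGFA did not pass. Genes were tested on log2(FPKM + 1) with limma across the 12127 genes that reached 1 FPKM in no fewer than 3 libraries, with p-values adjusted after Benjamini and Hochberg (BH) and called under 0.05. Here rose and fell refer to this test, SP relative to MP. Of the 10 genes 8 were tested, and FLT4 and VEGFD fell under the filter. All 4 tested receptors and neuropilins rose, where 20.5% of all tested genes were called higher in SP. Of 4 tested ligands 1 rose and 2 fell, where 18.7% of all tested genes were called lower. In either direction 7 of the 8 were called, against 39.2% of all tested genes. Without replicate 1 or replicate 2 of both populations, which leaves 2 libraries in each, 0 of the 4 receptors and neuropilins passed, and the calls over all genes came down to 763 and 351.

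**Figure D1:**
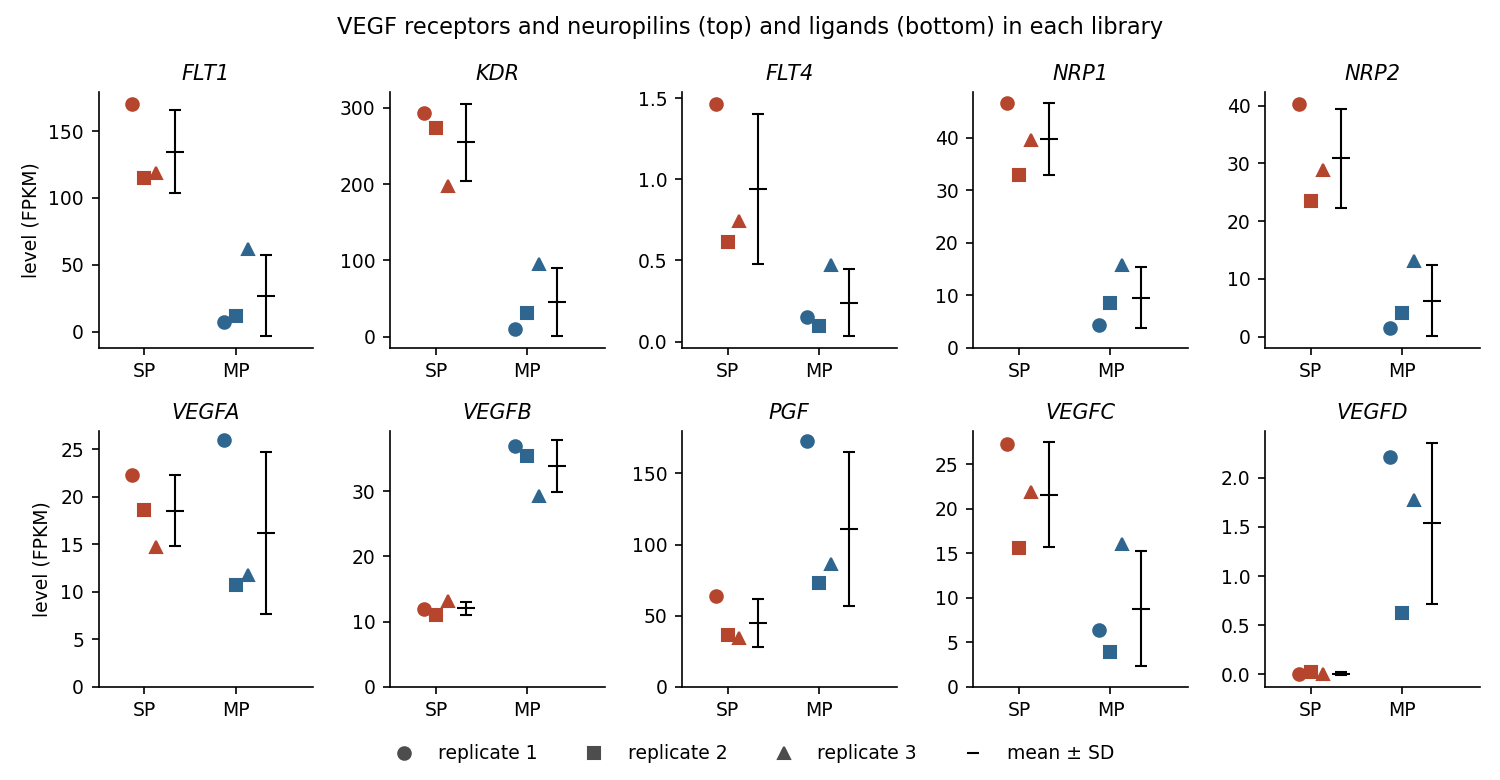
Level in FPKM (vertical axes, a scale per gene) of each VEGF receptor and neuropilin (top) and ligand (bottom) in SP (left, red) and MP (right, blue) libraries; symbols mark the replicate and black bars the mean ± SD (n = 3). The 3 SP values of FLT1, KDR, NRP1 and NRP2 lie above all MP values, those of VEGFB and PGF below, and those of VEGFA and VEGFC overlap with MP.

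KDR was the most abundant gene of the system in SP. It lies on chromosome 6 from 70567551 to 70612680 (build ARS-UCD1.2; this and later intervals are whole loci with introns, counted from 1). KDR had 294, 273 and 197 FPKM in SP replicates 1 to 3, against 10.2, 30.9 and 95.8 FPKM in MP replicates 1 to 3. The lowest SP library was about double the highest MP library, which was MP replicate 3. By mean level KDR ranked 407 among the tested genes in SP and 1697 in MP. Its log2 fold change was 2.95 ± 0.68 (SE; limma, BH-adjusted p = 0.0143), 3.73 without MP replicate 3 and 2.18 without MP replicate 1. The call held in 18 of 20 alternatives (limma, BH-adjusted p from 0.0032 to 0.106). It was lost without replicate 1 of both populations (0.0688) and without replicate 2 of both (0.106).

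FLT1 (chromosome 12, 31624080 to 31829381) had 171, 115 and 119 FPKM in SP, against 7.34, 11.9 and 61.9 FPKM in MP. SP replicate 1 was the highest library and MP replicate 3 again the highest of MP, without overlap of the populations. The means were 135 ± 31.1 FPKM in SP, against 27.0 ± 30.3 FPKM in MP (± SD, 3 libraries each). The log2 fold change was 2.82 ± 0.68 (SE; limma, BH-adjusted p = 0.0159), 3.69 without MP replicate 3 and 2.23 without MP replicate 1. The call was lost without SP replicate 1 (limma, BH-adjusted p = 0.0542) or MP replicate 2 (0.0559), over a range from 0.00153 to 0.113 in 20 alternative analyses.

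FLT4 (chromosome 7, 496590 to 537893) was scarce in every library. It had 1.47, 0.611 and 0.741 FPKM in SP, against 0.151, 0.0932 and 0.474 FPKM in MP. The 3 SP values lay above the 3 MP values, but only SP replicate 1 passed 1 FPKM and the gene was not tested. With no filter on low values its log2 fold change was 0.63 and did not pass (limma, BH-adjusted p = 0.0798). After removal of mitochondrial and ribosomal protein genes, which raises the scale of the rest, it was 0.94 and passed (limma, BH-adjusted p = 0.0475). Entry of FLT4 into the latter setting relied on its raised SP values, so that call is no support for its direction. Of the lymphatic endothelial markers PROX1, CCL21 and MMRN1 stayed under 1 FPKM in all libraries, and LYVE1 and PDPN did not pass.

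NRP1 and NRP2 moved with the receptors. NRP1 (chromosome 13, 19633437 to 19798352) had 46.5, 32.8 and 39.6 FPKM in SP, against 4.26, 8.44 and 15.8 FPKM in MP. NRP2 (chromosome 2, 94027745 to 94147956) had 40.4, 23.6 and 28.8 FPKM in SP, against 1.43, 4.14 and 13.2 FPKM in MP. Neither gene's populations overlapped, and MP replicate 3 was the highest MP library for both. NRP1 rose by 2.10 ± 0.41 and NRP2 by 2.47 ± 0.59 on the log2 scale (SE; limma, BH-adjusted p = 0.00818 and 0.0154). Without MP replicate 3 these changes were 2.51 and 3.14, and without MP replicate 1 they were 1.68 and 1.87. NRP1 held its call in 18 of 20 alternatives (limma, BH-adjusted p from 0.00326 to 0.0713). Without SP replicate 1 NRP2 did not pass (limma, BH-adjusted p = 0.0539; range over the alternatives 0.0033 to 0.0939). The locus of NRP2 holds 4 further listed loci, none above 3.63 FPKM in any library, and that of NRP1 holds 1 that is listed at 0 throughout.

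Among the ligands VEGFA, the main inducer of vessel growth, did not differ beyond the spread of the libraries. VEGFA (chromosome 23, 17281915 to 17297193) had 22.3, 18.6 and 14.8 FPKM in SP, against 26.0, 10.7 and 11.8 FPKM in MP. MP replicate 1 exceeded every SP library and the other MP libraries lay below all of SP. The log2 fold change was 0.28 with a 95% interval from −0.55 to 1.10 (limma, BH-adjusted p = 0.555), so a change of about 2-fold upward is within the interval. Without MP replicate 3 it was 0.12, and without MP replicate 1 it was 0.66 ± 0.27 (SE; limma, BH-adjusted p = 0.109). VEGFA passed in 0 of 20 alternatives (limma, BH-adjusted p from 0.109 to 0.954).

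VEGFB, a ligand of FLT1 (chromosome 29, 42539203 to 42542594), had 12.0, 11.0 and 13.1 FPKM in SP, against 36.9, 35.5 and 29.3 FPKM in MP. These were the tightest values of the system, and every MP library was more than double every SP library. VEGFB fell by 1.42 ± 0.21 on the log2 scale (SE; limma, BH-adjusted p = 0.0038), a mean level 2.82-fold lower in SP. Its log2 fold change was −1.51 without MP replicate 3 and −1.35 without MP replicate 1. The call held in 19 of 20 alternatives (limma, BH-adjusted p from 0.00332 to 0.0658).

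PGF, the other ligand that binds FLT1 alone among the kinase receptors (chromosome 10, 86200949 to 86214100), was the most abundant ligand in all 6 libraries. It had 64.0, 36.1 and 34.0 FPKM in SP, against 173, 72.7 and 86.4 FPKM in MP. Replicate 1 was the highest library of both populations, and the lowest MP value lay only slightly above the highest SP value. PGF fell by 1.24 ± 0.39 on the log2 scale (SE; limma, BH-adjusted p = 0.0382). Its log2 fold change was −1.37 without MP replicate 3 and −0.87 without MP replicate 1, and the call depended on the libraries. It was lost without SP replicate 2 (limma, BH-adjusted p = 0.107), SP replicate 3 (0.109) or MP replicate 1 (0.0983), with no filter on low values (0.0785) and with libraries rescaled to an equal sum (0.0631), and held in 12 of 20 alternatives (range 0.0136 to 0.126).

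VEGFC, a ligand of FLT4 and KDR (chromosome 27, 8017962 to 8103427), was the only ligand that rose. It had 27.3, 15.6 and 21.9 FPKM in SP, against 6.37, 3.90 and 16.1 FPKM in MP. MP replicate 3 lay just above SP replicate 2, and an exact permutation test, two-sided, gave p = 0.2 (no value under 0.1 is possible with 3 libraries a side). The log2 fold change was 1.37 ± 0.46 (SE; limma, BH-adjusted p = 0.0464), 1.88 without MP replicate 3 (0.00696) and 1.27 without MP replicate 1 (0.119). The call held in 9 of 20 alternatives (limma, BH-adjusted p from 0.00696 to 0.251). It failed without SP replicate 1, 2 or 3 or MP replicate 1 or 2, and under quantile normalization (0.0502) or median centring (0.0506).

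VEGFD, which shares its receptors with VEGFC (chromosome X, 128109100 to 128155601), was listed at 0 in SP replicates 1 and 3 and had 0.0257 FPKM in SP replicate 2. In MP it had 2.21, 0.623 and 1.77 FPKM. The program that computed the FPKM is not known, so whole fragments are assumed. On that assumption the SP replicate 2 value holds at least 1 fragment. A level of 3 fragments is then worth at most 0.123, 0.077 and 0.0675 FPKM in SP replicates 1 to 3, which is below each MP value. This limit covers counting error only, and no fold is given. The gene was under the filter of the test; with no filter on low values it was called lower in SP (limma, BH-adjusted p = 0.0249), a setting in which the log2(FPKM + 1) scale compresses its change.

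**Figure D2:**
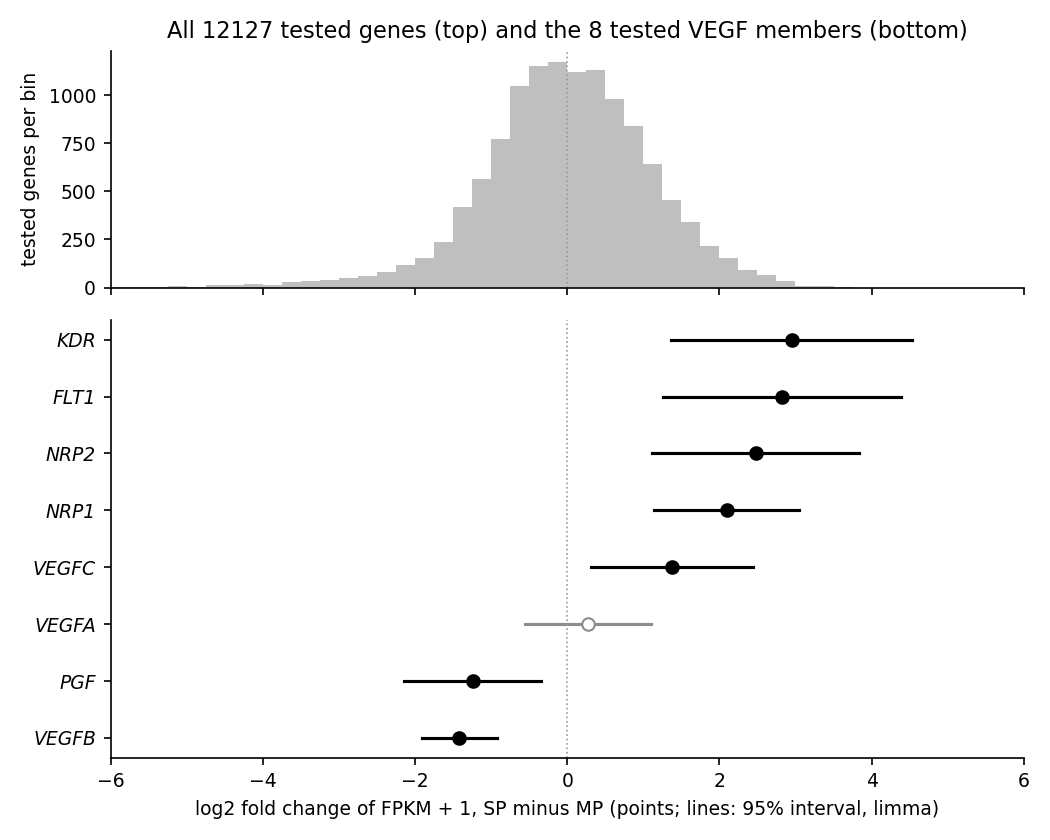
Log2 fold change of FPKM + 1, SP minus MP (horizontal axis), as the number of tested genes per bin (top, grey; bins beyond 6 in either direction are not shown) and for the 8 tested VEGF genes (bottom, points with 95% limma intervals; filled black where the adjusted p is under 0.05, open grey otherwise). KDR at 2.95 and FLT1 at 2.82 lie in the upper tail, VEGFA at 0.28 near the middle, and PGF at −1.24 and VEGFB at −1.42 below 0.

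Set in order of level, KDR and FLT1 led in SP, at 255 and 135 FPKM, and neither overlapped with the next gene. PGF, NRP1, NRP2, VEGFC and VEGFA followed at means from 44.7 to 18.5 FPKM, and each overlapped with its neighbour. VEGFB, at 12.0 FPKM, lay below all SP values of VEGFA. In MP the order began with PGF at 111 FPKM, then KDR at 45.6, VEGFB at 33.9, FLT1 at 27.0 and VEGFA at 16.2 FPKM, and the ranges of all neighbours down to VEGFD overlapped. KDR exceeded FLT1, and NRP1 exceeded NRP2, in each of the 6 libraries.

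The balance of receptor to ligand transcripts is given for each library, and its difference between the populations was not tested. Summed FPKM of the 3 receptors were 466, 388 and 317 in SP replicates 1 to 3, against 17.7, 42.9 and 158 in MP replicates 1 to 3. Summed FPKM of the 5 ligands were 126, 81.3 and 83.8 in SP, against 244, 123 and 145 in MP. Receptor transcripts therefore stood at 3.71, 4.78 and 3.78 times ligand transcripts in SP, and at 0.0726, 0.347 and 1.09 times in MP. The populations did not overlap in this quantity, and MP replicate 3 was the only MP library with more receptor than ligand transcript.

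Ratios within a library do not depend on how libraries are scaled, and 12 were computed. KDR over VEGFA was 13.2, 14.7 and 13.4 in SP, against 0.393, 2.89 and 8.12 in MP. FLT1 over PGF was 2.66, 3.18 and 3.48 in SP, against 0.0425, 0.163 and 0.716 in MP. Among SP libraries KDR over VEGFA was nearly constant and FLT1 over PGF varied more. Both ratios spread widely among MP libraries. PGF over VEGFA was the steadiest ratio of ligands, at 2.87, 1.94 and 2.31 in SP, against 6.63, 6.79 and 7.33 in MP. VEGFB over VEGFA was 0.538, 0.592 and 0.887 in SP, against 1.42, 3.31 and 2.49 in MP. Of the 12 ratios 7 did not overlap between populations, each with an exact two-sided permutation p of 0.1, the smallest possible, and an adjusted p of 0.171 over the 12. For comparison, the levels of 54.8% of all tested genes did not overlap. That share is of levels and not of ratios, and it is close to the share of the ratios. The count of ratios without overlap is therefore not read as a result.

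Ratios among the receptors and neuropilins overlapped. KDR over FLT1 was 1.72, 2.38 and 1.66 in SP, against 1.39, 2.61 and 1.55 in MP, and replicate 2 was highest in both (exact two-sided permutation p = 0.7). NRP1 over NRP2 was 1.15, 1.39 and 1.38 in SP, against 2.99, 2.04 and 1.20 in MP (exact permutation p = 0.3). NRP1 over KDR was 0.158, 0.12 and 0.201 in SP, against 0.416, 0.273 and 0.165 in MP (exact permutation p = 0.2). Overlap does not show that these ratios were equal. The ligand ratio PGF over VEGFB overlapped as well, at 5.34, 3.28 and 2.60 in SP, against 4.68, 2.05 and 2.95 in MP (exact permutation p = 0.6). As shares of the ligand sum, VEGFC made up 21.8%, 19.2% and 26.2% in SP, against 2.61%, 3.16% and 11.1% in MP. PGF made up 51.0%, 44.4% and 40.6% in SP, against 70.7%, 58.9% and 59.4% in MP.

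**Figure D3:**
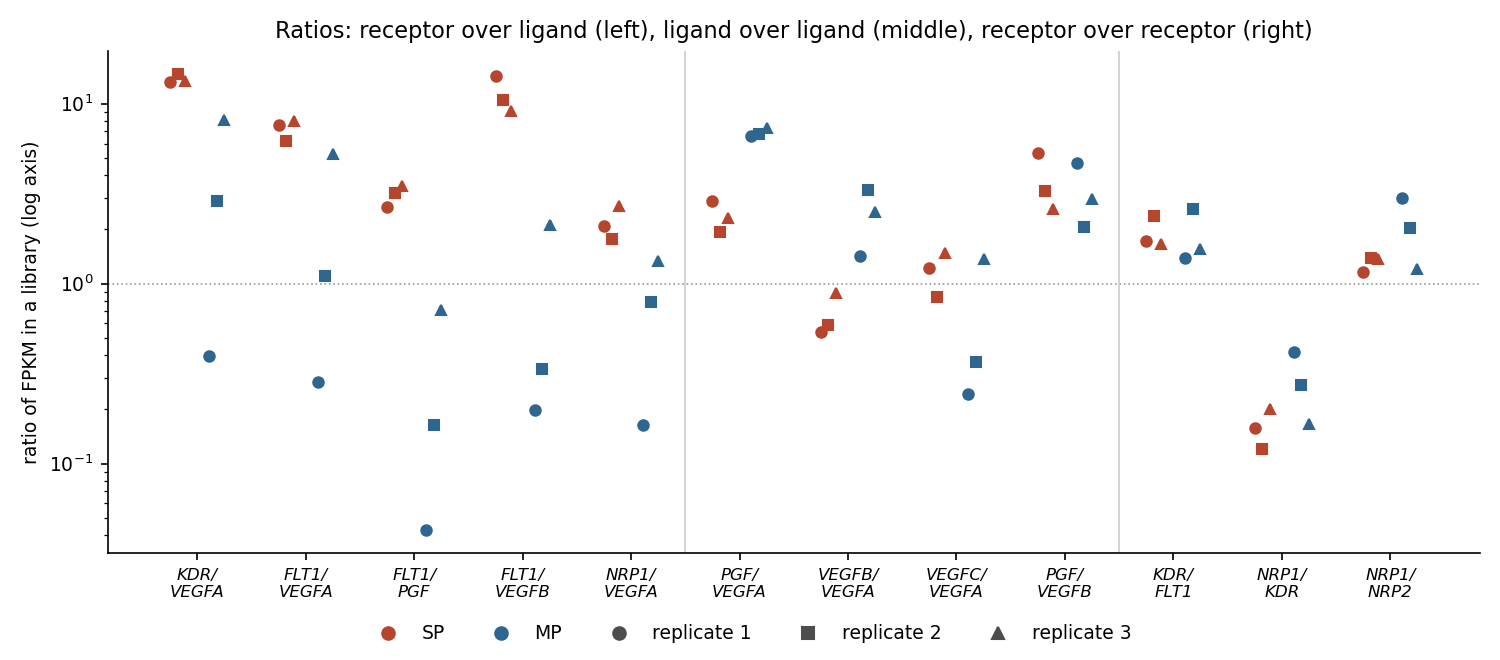
Ratio of the FPKM of 2 genes within a library (vertical log axis) for 12 gene pairs, with SP (red) left of MP (blue) and symbols for the replicate; the dotted line marks equal levels. The 5 ratios of a receptor or neuropilin to a ligand lie higher in SP, PGF/VEGFA and VEGFB/VEGFA lie higher in MP, and the other 5 ratios overlap.

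FLT1, NRP1 and NRP2 had the same order of libraries as the endothelial median, in SP and in MP, and KDR had it in MP. Of 16 endothelial markers 15 rose, where 20.5% of all tested genes rose, and CLDN5 did not pass, with summed levels from 1713 to 2548 FPKM in SP and from 197 to 1017 FPKM in MP, and none was at 0 in SP or in MP. VE-cadherin (CDH5) had 177, 134 and 132 FPKM in SP, against 6.82, 18.5 and 51.1 FPKM in MP, the same order of MP libraries as FLT1 and KDR. Divided by the median endothelial marker, taken on the log scale, FLT1 stood at 1.23, 1.43 and 1.28 in SP, against 0.911, 0.653 and 1.08 in MP. KDR stood at 2.12, 3.40 and 2.13 in SP, against 1.27, 1.70 and 1.67 in MP. On this scale the log2 difference, SP minus MP, was 0.61 for FLT1, 0.70 for KDR, 0.51 for NRP2 and −0.07 for NRP1. The first 3 did not overlap between populations, whereas NRP1 did, at 0.336, 0.409 and 0.429 in SP, against 0.529, 0.465 and 0.275 in MP. Single markers also departed from their own median. The log2 fold changes of CDH5, VWF and ERG were 2.88, 2.79 and 2.63, that of CLDN5 was −0.22, and the list median was 2.22. Whether FLT1, KDR or NRP2 differed from the endothelial markers was not tested. The share of all tested genes without overlap on this scale was not computed.

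VEGFC had the order of the endothelial median in SP but not in MP, where replicate 2 was lowest. VEGFC per endothelial marker was 0.198, 0.194 and 0.237 in SP, against 0.79, 0.215 and 0.28 in MP, with overlap. Where 18.7% of all tested genes fell, fibroblast markers fell in 7 of 10 and none rose. The filter fixed the direction of DPT, 1 of the 7, which passed it through MP alone. The fibroblast list had sums from 309 to 505 FPKM in SP and from 2930 to 10992 FPKM in MP, and none was at 0. Of 11 tested pericyte and smooth muscle markers 7 fell, with sums from 342 to 544 FPKM in SP and from 1201 to 1993 FPKM in MP. Myeloid markers fell in 8 of 10, of which 3 (CSF1R, AIF1 and CD163) had their direction fixed by the filter, with sums from 122 to 145 FPKM in SP and from 669 to 1229 FPKM in MP. T and NK cell markers fell in 6 of 6 tested, with sums from 0.509 to 3.81 FPKM in SP and from 79.9 to 260 FPKM in MP; 5 of these were under 1 FPKM in each SP library, so the filter fixed their direction, and CD8B was at 0 there. Mast cell markers fell in 4 of 5 tested, of which 2 (FCER1A and HPGDS) had their direction fixed in the same way, with sums from 14.8 to 34.0 FPKM in SP and from 408 to 986 FPKM in MP. Of 8 epithelial markers 0 passed, with sums from 185 to 1796 FPKM in SP and from 989 to 4650 FPKM in MP. The part of these cells in the levels of VEGFB, PGF and VEGFD was not tested.

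**Figure D4:**
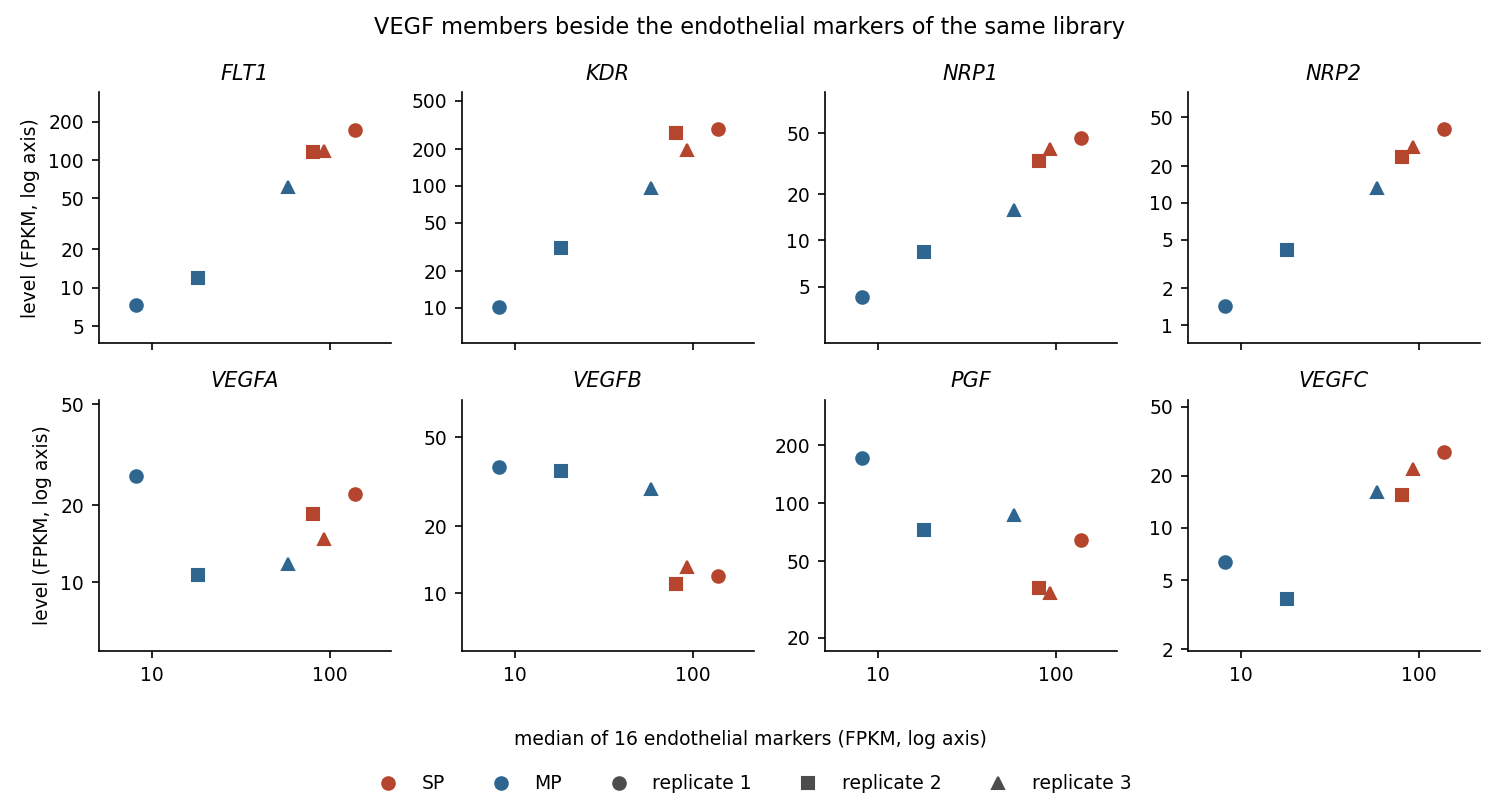
Level of each tested VEGF gene in FPKM (vertical log axes) against the median of 16 endothelial markers in the same library (horizontal log axis), for SP (red) and MP (blue), with symbols for the replicate. FLT1, KDR, NRP1 and NRP2 increase with the markers, from MP replicate 1 at the lower left through MP replicate 3 to SP. VEGFB and PGF lie lower in SP than in MP, PGF without a steady trend within either population, and VEGFA shows no line.

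Over the 6 libraries, the genes with the pattern most like FLT1 were SEMA6B, HIF1A and MMRN2 (Pearson r of log2(FPKM + 1) of 0.998 each). Those most like KDR were HIPK3, TIE1 and METTL18 (0.998 each), those most like NRP1 were ATP1B1 (0.999), RNF19A (0.999) and ITGA6 (0.999), and those most like VEGFA were EBNA1BP2, LSM14B and IL12A (0.986, 0.981 and 0.979). With 6 points that share the split of populations and the depth, 73, 52 and 48 genes passed 0.99 with FLT1, KDR and NRP1 and 0 with VEGFA. Among the members themselves FLT1, KDR, NRP1 and NRP2 had r from 0.979 to 0.993, and FLT1 had r of 0.938 with VEGFC and −0.902 with VEGFB.

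Of 108 further genes around VEGF, in 5 lists, 94 were tested, and 37 rose and 9 fell, where 20.5% of all tested genes rose and 18.7% fell. These shares are the background for each list that follows. The lists were chosen with earlier results of these data known, so a share above the background is a description only. The median log2 fold change of the 94 was 0.55, against 0.01 for all tested genes. The endothelial markers above moved in the same libraries, and their part in these counts was not tested.

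Among these 5 lists, genes that VEGF induces in endothelium had the highest share called higher, with 11 of 20 that rose and 0 that fell (median log2 fold change 1.21), where 20.5% of all tested genes rose. DLL4, a Notch ligand of sprouting vessels, averaged 95.3 ± 49.5 FPKM in SP, against 18.3 ± 13.3 FPKM in MP, and the phosphatase DUSP5 averaged 321 ± 204 FPKM in SP, against 59.4 ± 22.8 FPKM in MP (± SD, 3 libraries each). The nuclear receptor NR4A2 and the homeobox factor HHEX rose by 2.05 ± 0.35 and 3.18 ± 0.65 on the log2 scale (SE; limma, BH-adjusted p = 0.00576 and 0.0094). ESM1, a transcript of VEGF-stimulated tip cells, had 22.6, 6.71 and 10.2 FPKM in SP, against 2.24, 5.16 and 8.33 FPKM in MP, and did not pass. ESM1 is named outside the rule, after its values were seen.

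Downstream of the receptors 15 of 44 tested signalling genes rose and 4 fell (median 0.50), where 20.5% of all tested genes rose and 18.7% fell. PLCG1, the phospholipase that KDR engages, averaged 19.2 ± 7.28 FPKM in SP, against 1.72 ± 0.775 FPKM in MP (± SD, 3 libraries each), which gave a log2 fold change of 2.86 ± 0.34 (SE; limma, BH-adjusted p = 0.0021). The kinases YES1 and PIK3CA rose by 1.71 and 1.75 on the log2 scale. The locus of PIK3CA overlaps those of KCNMB3 and ZNF639, and that of PIK3R2 overlaps MAST3. The regulatory subunits PIK3R2 and PIK3R1 had log2 fold changes of −2.01 and −1.35, the adaptor SHC2 −2.50 and the protein kinase PRKCB −1.61. SHC2 and PRKCB were under 1 FPKM in each SP library, so the filter fixed their direction. Of the PI3-kinase subunits, PIK3CA stood at 24.6, 16.4 and 18.4 FPKM in SP against 4.78, 4.09 and 6.74 FPKM in MP, and PIK3R1 stood at 5.90, 5.21 and 7.19 FPKM in SP against 25.9, 16.4 and 11.4 FPKM in MP.

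Of 8 tested partners of the neuropilins (semaphorins, plexins and GIPC1), 3 rose and 2 fell (median 0.62), and the share that fell is near the 18.7% of all tested genes. SEMA3F, a repellent ligand of NRP2, averaged 100.0 ± 19.6 FPKM in SP, against 15.7 ± 12.9 FPKM in MP, and SEMA3C averaged 1.49 ± 0.675 FPKM in SP, against 15.6 ± 8.98 FPKM in MP (± SD, 3 libraries each), with log2 fold changes of 2.84 and −2.59 (limma, BH-adjusted p = 0.00547 and 0.00654). The signalling partners PLXNA2 and PLXND1 rose by 2.70 and 1.47 on the log2 scale, and PLXNA3 had −0.69, a call that held in 6 of 19 alternatives (limma, BH-adjusted p from 0.0268 to 0.217).

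Of 9 tested oxygen-sensing genes, which control VEGFA transcription, 3 rose and 0 fell (median 0.41), where 20.5% of all tested genes rose, while VEGFA itself did not pass. EPAS1, the HIF subunit typical of endothelium, averaged 196 ± 65.1 FPKM in SP, against 33.5 ± 26.5 FPKM in MP (± SD, 3 libraries each). HIF1A averaged 214 ± 23.7 FPKM in SP, against 64.5 ± 45.8 FPKM in MP, and their partner ARNT 13.0 ± 3.97 FPKM in SP, against 5.98 ± 0.368 FPKM in MP. On the log2 scale these rises were 2.77 ± 0.55, 1.93 ± 0.44 and 0.97 ± 0.26 (SE; limma, BH-adjusted p = 0.00873, 0.0139 and 0.0222), with ARNT, whose locus overlaps that of CTSK, called in 14 of 20 alternatives (0.0194 to 0.109). The difference between these changes and that of VEGFA was not tested.

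Of 13 tested genes that process ligands or hold them outside the cell, 5 rose and 3 fell (median −0.14), and the share that fell is near the 18.7% of all tested genes. FURIN, a protease that cleaves pro-VEGFC, rose by 1.24 (limma, BH-adjusted p = 0.0284; called in 12 of 20 alternatives, 0.0136 to 0.165), and its locus overlaps that of LOC101907843. The heparan sulfate proteoglycan HSPG2 rose by 2.29, the inhibitor thrombospondin (THBS1) by 1.63 and vasohibin (VASH1), an inhibitor that endothelium makes, by 2.29. SVBP, the chaperone of vasohibin, averaged 21.3 ± 3.15 FPKM in SP, against 53.1 ± 8.05 FPKM in MP (± SD, 3 libraries each), which gave a log2 fold change of −1.28 (limma, BH-adjusted p = 0.00625), opposite to VASH1. The proteases MMP2 and CTSD had −2.07 and −0.88. CCBE1 and ADAMTS3, which activate VEGFC, were not tested, with CCBE1 above 1 FPKM in SP replicate 1 alone and ADAMTS3 under 1 FPKM throughout.

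**Figure D5:**
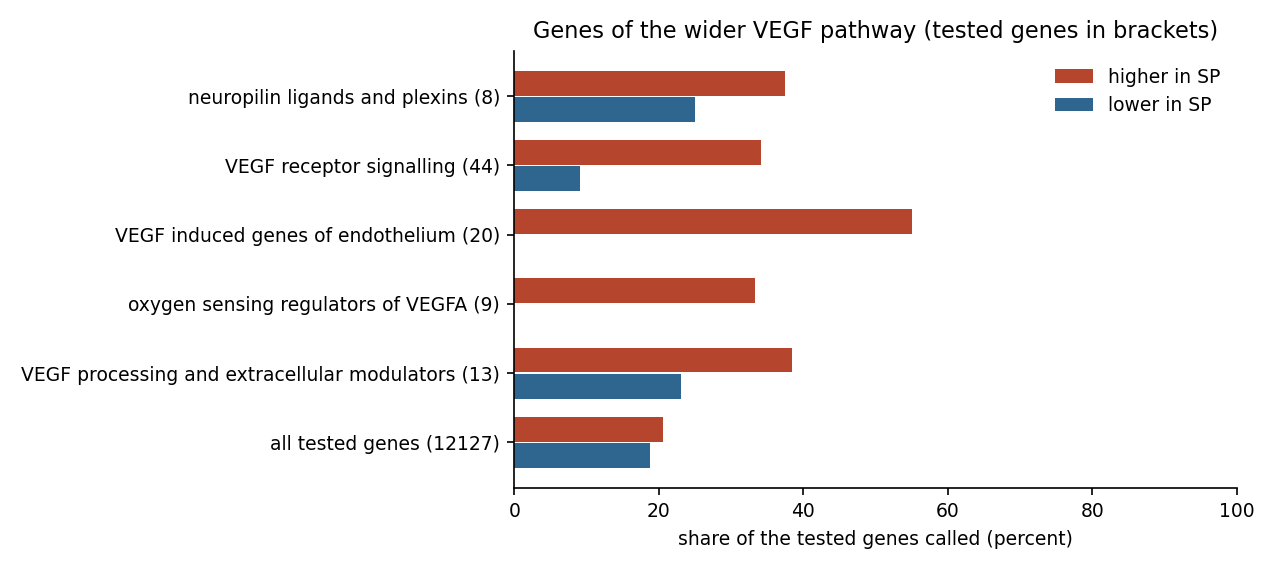
Share of the tested genes of each list, in percent (horizontal axis), called higher (red) or lower (blue) in SP than in MP, with the number tested in brackets and all tested genes at the bottom. Among the 5 lists of further genes the VEGF-induced ones, with 11 of 20 higher, show the largest share called higher, against 20.5% of all tested genes called higher and 18.7% lower. The lists were chosen with earlier results of these data known.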

How the data were processed

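The 3 SP and 3 MP libraries were, per the labels' protocols, built from total RNA (micro column extraction) by a stranded mRNA preparation. Per the submitters' processing notes, cutadapt 2.5, HISAT2 2.1.0 and the build ARS-UCD1.2 were used. The deposited values are FPKM per gene and library, per the file headers. Not given in the sources used here are the program that computed them, its annotation and its use of strand. No scaling between libraries is stated. One row without a gene name (0.185% to 1.91% of the values) was left out. No counts are in these files, so depth is estimated only in relative terms, and on the premise of no such scaling. The estimate is the commonest ratio of low values between libraries over genes at 0 in 2 or more of the others. This rule replaced, after the data were seen, one that took all low values and missed some simulated depths. The 15 pairs of libraries agree within 0.833%.

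Groups and replicate numbers came from the titles. The 12127 genes that reached 1 FPKM in 3 or more of the 6 libraries entered a limma fit (limma 3.58.1, R 4.3.3; moderated by eBayes with trend; two-sided) of log2(FPKM + 1), SP minus MP, and p-values were adjusted after Benjamini and Hochberg over all of them. Fold changes on this scale understate those of low genes. On simulated data the fit missed most of the smallest changes, and somewhat more of its calls were false than the threshold allows. Single values were compared with the exact permutation test. The members and lists were chosen with earlier results of these data known. Named were all 10 members, up to 4 called genes in each direction per pathway list and up to 2 per marker list by smallest p (the 2 most abundant in lists without a call), and the 3 genes most like VEGFA, FLT1, KDR and NRP1; one gene that the rule names is not reported here. One listed gene, CCN2, was matched to CTGF in the gene table (assembly ARS-UCD2.0) that also gave the chromosome names. Alternatives were pseudocounts of 0.1 and 0.5, filters, scalings, variance models, the replicate block and leaving out libraries. Protein and promoter sequences were not used here.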

Additional observations from a re-analysis of the deposited data

How the results depend on the processing

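None of the tested members changed direction in any of 20 alternatives. Among their 160 single values 129 kept their side of the threshold and 31 lost the call. Leaving out replicates moved the counts most: all calls ranged from 351 to 4455 (4759 in the full analysis), those higher in SP from 105 to 2574, ligands called from 0 to 3, ligands higher in SP from 0 to 1 and lower from 0 to 2, receptors and neuropilins called from 0 to 4, genes of the wider pathway called from 2 to 48 (46) and markers called from 10 to 43 (47). The lowest values came without replicate 2 of both populations, which leaves 2 libraries in each. Without MP replicate 3 the counts were 4455 calls, 4 of 4 receptors and neuropilins and 3 of 4 ligands. Without MP replicate 1 they were 2601 calls, 4 of 4 receptors and neuropilins and 1 of 4 ligands. The number of ligands higher in SP was 0 with log2(FPKM + 0.1), no filter on low values, quantile normalization and median centring, and the number lower was 1 with libraries rescaled to a sum of 1e+06. That scaling shifted the median log2 fold change of all genes to 0.19 and made 68.0% of calls higher in SP, against 52.3% as deposited. The log2 fold change of EPCAM (−0.19) changed sign with that scaling (0.027), without SP replicate 1 (0.79), without MP replicate 2 (0.87) and without replicate 1 of both (0.37); with replicates left out it ranged from −1.11 to 0.87, and it passed in none of the 20. The cause was not tested. With the replicate number as a block 4793 genes were called, with 4 receptors and neuropilins, 3 ligands and 55 markers, among them the epithelial CLDN4 (−1.94; limma, BH-adjusted p = 0.0216), which did not pass without the block. The file headers give both populations the same preparation numbers without saying whether a number is one animal. Deviations of same-numbered libraries had r of 0.105, 0.533 and −0.0854 across genes, so pairing was not assumed and is not excluded. The SP libraries, estimated as shallower, limit statements on VEGFD.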
